A study of Homo sapiens with 9 samples.

Results

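The 54 genes described here act in the cell cycle and in DNA replication: they load and fire replication origins, supply nucleotides, drive or restrain the cyclin-dependent kinases, and build the mitotic spindle. They were chosen as a fixed list of symbols, and all 54 were found in the deposited count table, which holds 58884 genes. All 54 were among the 13001 genes that passed the filter on low counts. RNA-seq was performed in MDA-MB-231, a triple-negative breast cancer cell line of claudin-low character (the parental line, Par), and in derivatives selected from it for metastasis to lung (LM2) or brain (BrM2). Cultures from 3 passages of every line were sequenced as biological replicates, numbered 1 to 3 in the labels. All 9 cultures were untreated monolayers in DMEM with FBS and penicillin-streptomycin. LM2 and BrM2 were each obtained by selection in mice for colonization of the lung or the brain, so that each site is represented by a single selected sub-population. The p-values therefore measure the spread between cultures of these lines, and not between independent selections.

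In a dividing cell, D-type cyclins with CDK4 and CDK6, and then E-type cyclins with CDK2, phosphorylate the retinoblastoma protein and release E2F factors, which switch on the genes of DNA replication. In G1, CDC6 and CDT1 load the MCM2 to MCM7 helicase onto origins, and CDC45 and MCM10 help to activate it when S phase begins. Later in the cycle, the FOXM1 and MYBL2 transcription factors, working with the MuvB complex at CHR elements, raise the genes of mitosis, among them the B-type cyclins, the Aurora kinases and the kinesins. CDKN1A (p21), CDKN1B (p27) and CDKN2C (p18) restrain the kinases. Because the genes of S phase and mitosis are expressed at set times, their level in bulk RNA rises with the share of cells in those phases, and fewer cells of a phase and less RNA per cell cannot be told apart.

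Promoter sequences of 4 genes are shown because their expression differed between the lines in the tests described below and because they stand for the replication and the mitotic part of the cycle. They are RefSeq sequences of GRCh38.p14, each from 250 bases before an annotated start of the gene to 50 bases after it, written 5′ to 3′. The searched words were TTTCCCGC, TTTCGCGC, TTTGCCGC and TTTGGCGC for an E2F site, TTTGAA and TTCGAA for a CHR element, and CCAAT for a CCAAT box, each on both strands. Capitals mark every match. CDC6 and RRM2, which were higher in BrM2 than in Par, lie at chr17:40287629-40287928 and chr2:10122489-10122788. CCNB2 and CENPF lie at chr15:59104896-59105195 and chr1:214602945-214603244. They were lower in BrM2 than in LM2 in the edgeR fit with the replicate number as a block, but did not pass without it. All 4 windows are on the plus strand.
CDC6: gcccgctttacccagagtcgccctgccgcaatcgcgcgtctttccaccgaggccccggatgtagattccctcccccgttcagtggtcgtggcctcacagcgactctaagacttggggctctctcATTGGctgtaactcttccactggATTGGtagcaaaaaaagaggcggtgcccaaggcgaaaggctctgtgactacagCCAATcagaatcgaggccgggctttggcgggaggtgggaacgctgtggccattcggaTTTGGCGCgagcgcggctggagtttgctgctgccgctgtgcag
RRM2: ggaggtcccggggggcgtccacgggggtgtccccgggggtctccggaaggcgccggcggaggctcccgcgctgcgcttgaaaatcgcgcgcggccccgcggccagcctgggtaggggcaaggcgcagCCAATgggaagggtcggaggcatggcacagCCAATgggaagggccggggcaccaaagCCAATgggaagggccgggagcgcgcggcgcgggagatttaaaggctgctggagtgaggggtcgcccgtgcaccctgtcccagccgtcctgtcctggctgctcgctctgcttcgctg
CCNB2: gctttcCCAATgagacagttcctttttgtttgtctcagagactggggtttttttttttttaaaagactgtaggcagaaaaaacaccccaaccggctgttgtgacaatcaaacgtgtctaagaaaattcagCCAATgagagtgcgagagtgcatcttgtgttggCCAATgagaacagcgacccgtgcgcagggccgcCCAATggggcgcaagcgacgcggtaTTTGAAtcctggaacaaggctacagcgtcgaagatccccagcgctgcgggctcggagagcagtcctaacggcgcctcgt
CENPF: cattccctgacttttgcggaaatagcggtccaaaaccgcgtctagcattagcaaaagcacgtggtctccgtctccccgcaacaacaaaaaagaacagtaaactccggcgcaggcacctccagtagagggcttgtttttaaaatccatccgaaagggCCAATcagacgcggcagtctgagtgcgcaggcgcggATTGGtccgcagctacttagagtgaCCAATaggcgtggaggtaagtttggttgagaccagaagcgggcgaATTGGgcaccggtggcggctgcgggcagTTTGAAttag
In the window of CDC6, the E2F word TTTGGCGC began 7 bases after the start, and CCAAT boxes began 50, 103 and 126 bases before it. The window shown for RRM2 held 3 CCAAT boxes, which began 66, 93 and 123 bases before its start, and no E2F or CHR word. Another RRM2 window, at chr2:10122318-10122617, belongs to an earlier annotated start. It held 1 CCAAT box, which began 249 bases before that start, and no E2F or CHR word. In CCNB2 the CHR word TTTGAA began 29 bases before the start, behind a row of 4 CCAAT boxes that began 54, 87, 120 and 244 bases before it. CENPF had the same CHR word 40 bases after the start and 4 CCAAT boxes. Over all genes of the list, 42 had a promoter in the table, with 59 windows between them. Of the 59 windows, 27.1% held an E2F word, against 3.31% of all 35116 promoter windows of this length. A CCAAT box was in 67.8% of the windows of the list and in 34.6% of all windows, and the corresponding shares for the CHR words were 27.1% and 16.4%. By role, 7 of 9 replication licensing genes had an E2F word, and CHR words were found in 4 of 5 mitotic kinase genes and in 5 of 7 spindle genes. Matches of different words overlapped in 1 window of MCM7 and in 1 window of MKI67. A match of letters is a description and not a measured binding site. TTK, CDK2, CCNE2, BIRC5, TPX2, E2F8, CCND1, MCM5, FOXM1, AURKA, MCM4 and CCND2 had no entry in the table.

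Each library had 14371867 to 24511790 counts on genes, and the 54 genes took 1.07% to 1.39% of them. Epithelial and mesenchymal markers were both expressed, with 6990 to 22510 counts for KRT8 and 13148 to 37754 for VIM. Other epithelial markers were mixed. CDH1 had 3 to 37 counts, KRT5 0 to 15, KRT14 1 to 5 and CLDN3 0 to 9, whereas CLDN7 had 156 to 304. CLDN4 had 1850 to 2197 counts in Par, 111 to 156 in LM2 and 216 to 443 in BrM2. KRT19 had 4062 to 4789, 760 to 1467 and 2363 to 3867 in the same order. Of the receptors, ESR1 had 2 to 16 counts, PGR 0 to 4 and ERBB2 1420 to 2722. Of 14 markers of leukocytes, endothelium, lung epithelium and brain, 10 had at most 9 counts in any library, and CD14, PECAM1, GFAP and MBP were detected in all 3 lines. The first replicate stood apart from the others in every line. Its log2 difference from the mean of replicates 2 and 3 ranged over the 54 genes from -2.32 to 1.22 in Par, from -3.08 to 1.38 in LM2 and from -2.60 to 1.68 in BrM2, and CENPE was lowest in all 3 lines. Across the genes of the list, this difference rose with the GC content of the transcript, with a Spearman correlation of 0.79 in Par, 0.85 in LM2 and 0.86 in BrM2 (54 genes from the same libraries). Over all genes with a known GC content, the same correlation was 0.70, 0.79 and 0.83. It fell with transcript length in the list, with correlations of -0.56, -0.54 and -0.56. Across the lines, libraries that share a replicate number deviated in the same direction, which set replicate 1 apart, whereas replicates 2 and 3 of different lines also deviated together. This number was also fitted as a block, and every value below is given without the block unless the block is named.

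**Figure D1:**
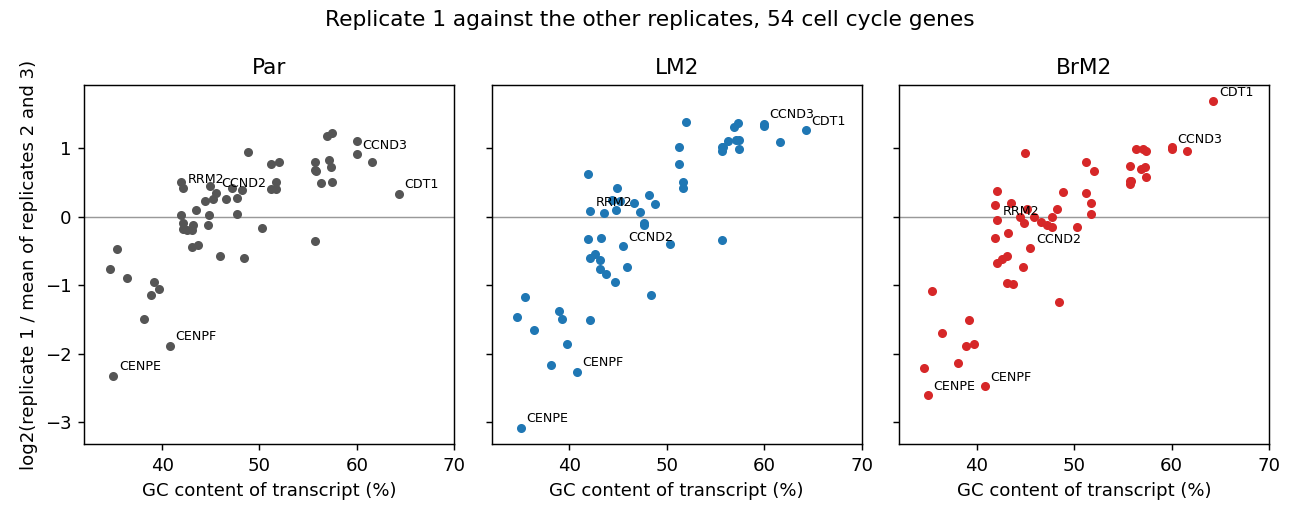
Log2 ratio of replicate 1 to the mean of replicates 2 and 3 (vertical axis) against the GC content of the transcript in percent (horizontal axis), for the 54 genes in Par, LM2 and BrM2. Each point is a gene; points rise from CENPE at low GC content, at -2.32, -3.08 and -2.60, to positive values at high GC content in every line.

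Without the block, few genes of the list passed the threshold, which does not show that the others were level. In the edgeR quasi-likelihood test, with p-values adjusted over all tested genes after Benjamini and Hochberg, 1 of 54 passed an adjusted p of 0.05 for LM2 against Par (CCND2, higher), beside 8.65% of all genes in either direction and 4.17% in the higher direction. For BrM2 against Par, 3 of 54 passed (CCND2, CDC6 and RRM2, all higher), which is 5.56% beside 13.2% of all genes, of which 6.25% were higher. For BrM2 against LM2, 0 of 54 passed beside 8.08% of all genes. In that comparison 4 members (7.41%) had an unadjusted p under 0.05, beside 20.9% of all genes, and the smallest adjusted p of a member was 0.11. DESeq2 called 3 members (5.56%), beside 13.9% of all genes. The median log2 fold change of the 54 genes was 0.18 for LM2 against Par, 0.08 for BrM2 against Par and -0.06 for BrM2 against LM2, where the medians of all tested genes were 0.01, -0.02 and -0.03. A positive value was found for 39, 29 and 19 of the 54 genes in these comparisons, which is 72.2%, 53.7% and 35.2%, beside 51.3%, 48.5% and 47.7% of all tested genes.

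With the replicate number as a block, which lowered the common dispersion of all genes from 0.11 to 0.021, the counts were larger. For LM2 against Par, 17 of 54 genes passed (31.5%, 15 higher and 2 lower), beside 34.5% of all genes, of which 15.5% were higher and 19% lower. For BrM2 against Par, 17 passed (31.5%, 13 higher and 4 lower), beside 42.7%, 19.5% and 23.2%. For BrM2 against LM2, 21 passed (38.9%, 7 higher and 14 lower), beside 37.5%, 17.9% and 19.7%. The total share of members called was thus near or below that of all genes in each comparison, but the directions differed. Against Par, more members were higher than lower in both lines, whereas more of all genes were lower than higher. In all, 32 genes of the list passed in at least 1 comparison with the block and 22 in none. The comparisons of LM2 and BrM2 with Par share the 3 Par libraries. Libraries of the lines compared did not overlap for 12 of 54 genes in LM2 against Par (22.2%, beside 25.1% of all genes), for 13 in BrM2 against Par (24.1%, beside 31.3%) and for 7 in BrM2 against LM2 (13%, beside 23.1%). An exact permutation test of 3 libraries against 3 cannot give a p below 0.1.

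When replicate 1 of all lines was left out of the fit with the block, 15 of the 17 calls remained for LM2 against Par, 14 of 17 for BrM2 against Par and 14 of 21 for BrM2 against LM2. A correction for GC content and length within the fit with the block, added after the data had been seen, kept all 17, 17 and 21 calls and raised the counts to 28, 25 and 24. These are 51.9%, 46.3% and 44.4% of the list, beside 46.2%, 56.7% and 50.4% of all genes in the same fit. Of the 22 genes that passed in no comparison with the block, 7 passed with this correction (MCM2, CCNA2, CDK4, PLK1, PLK4, KIF11 and CENPA). Where a gene or a comparison is said below not to pass, the fits with and without the block are meant unless another fit is named. Replicate number accounted for a median of 65.4% of the sum of squares of log2 expression per gene of the list, and line for 22.4%. Line took the larger part for 16 of the 54 genes, among them CDC6 (97.4%), CCND2 (93.4%), MCM4 (90.8%) and RRM2 (90.6%). At the other end stood PLK4, for which replicate number took 95%, BIRC5 with 94.2% and KIF11 with 93%.

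**Figure D2:**
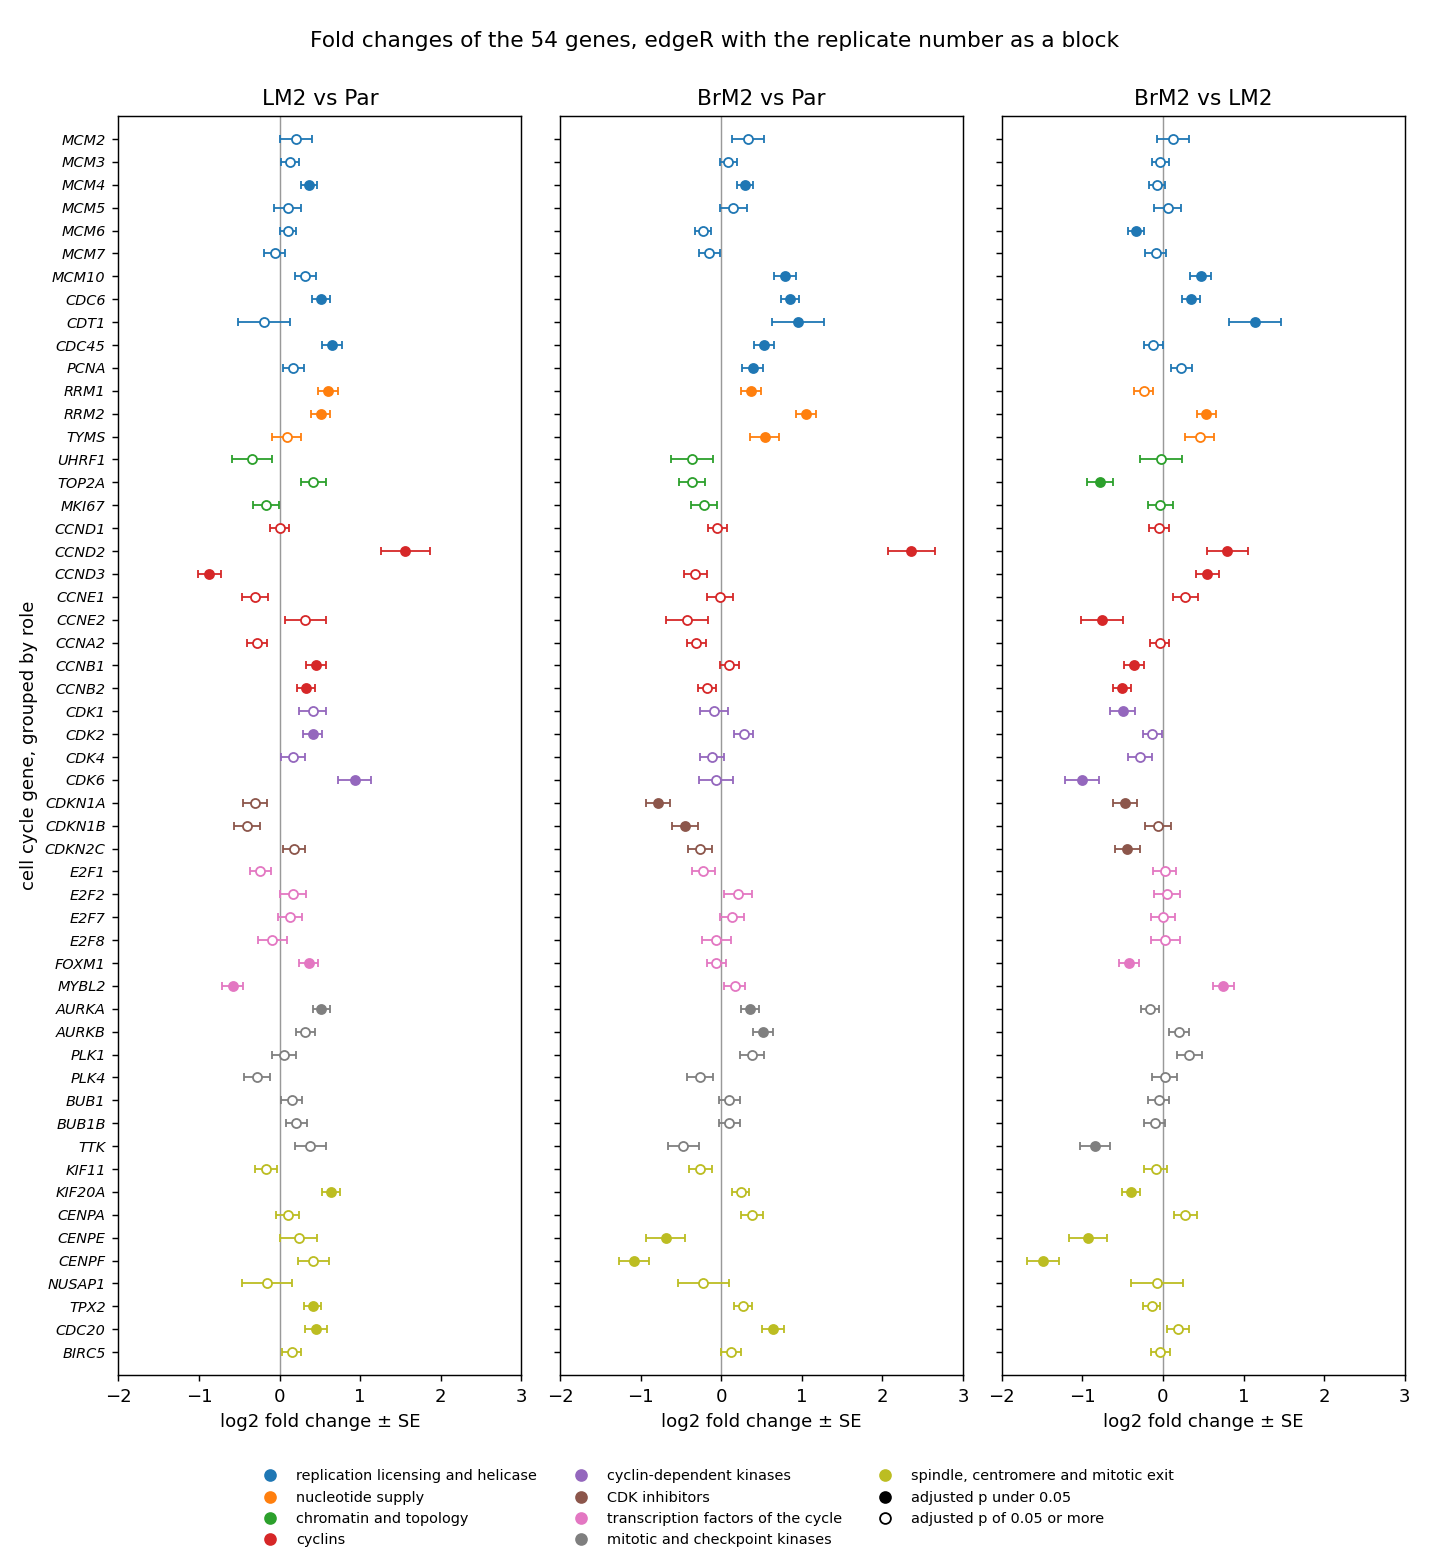
Log2 fold change with its standard error (horizontal axes) of the 54 genes, ordered and coloured by role, in edgeR's fit with the replicate number as a block, for LM2 against Par, BrM2 against Par and BrM2 against LM2. Filled points passed an adjusted p of 0.05: 17, 17 and 21 genes (31.5%, 31.5% and 38.9%, beside 34.5%, 42.7% and 37.5% of all genes). CCND2 is farthest to the right against Par at 1.56 and 2.36, and CENPF is farthest to the left in BrM2 at -1.08 and -1.49.

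The summed level of the genes that make deoxyribonucleotides, and that of the mitotic and checkpoint kinases, lay above Par in both metastatic lines. RRM1, RRM2 and TYMS together reached 573, 527 and 495 CPM (read counts relative to the TMM-adjusted total of each library) in Par, 690, 826 and 791 CPM in LM2, and 781, 976 and 862 CPM in BrM2. The libraries of Par lay below all libraries of the metastatic lines, and those of LM2 and BrM2 overlapped. The 7 mitotic and checkpoint kinases summed to 994, 977 and 911 CPM in Par, 1200, 1180 and 1170 in LM2 and 1120, 1180 and 1130 in BrM2, with Par again below all other libraries. The 9 genes of the spindle, centromere and mitotic exit summed to 2120 ± 84.5 CPM (SD, n = 3) in Par, 2840 ± 80.8 in LM2 and 2280 ± 172 in BrM2. The 4 cyclin-dependent kinases gave 458 ± 15.7, 658 ± 61.7 and 460 ± 87.3 CPM in the same order, so that the LM2 libraries were above those of both other lines for the spindle genes and the cyclin-dependent kinases. The 3 CDK inhibitors had 187 ± 29.9 CPM in Par, 177 ± 46.4 in LM2 and 134 ± 38.1 in BrM2, and all 3 lines overlapped. No test was made on the sums, in which abundant genes weigh most. AURKA had a mean of 269 CPM in Par, 385 in LM2 and 344 in BrM2, whereas PLK4 had 68.3, 61.8 and 62.5. The log2 fold change against Par was positive for 6 of 7 kinases in LM2 and 5 of 7 in BrM2. With the block, 1 of 7 passed for LM2 (14.3%, beside 34.5% of all genes) and 2 of 7 for BrM2 (28.6%, beside 42.7%).

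**Figure D3:**
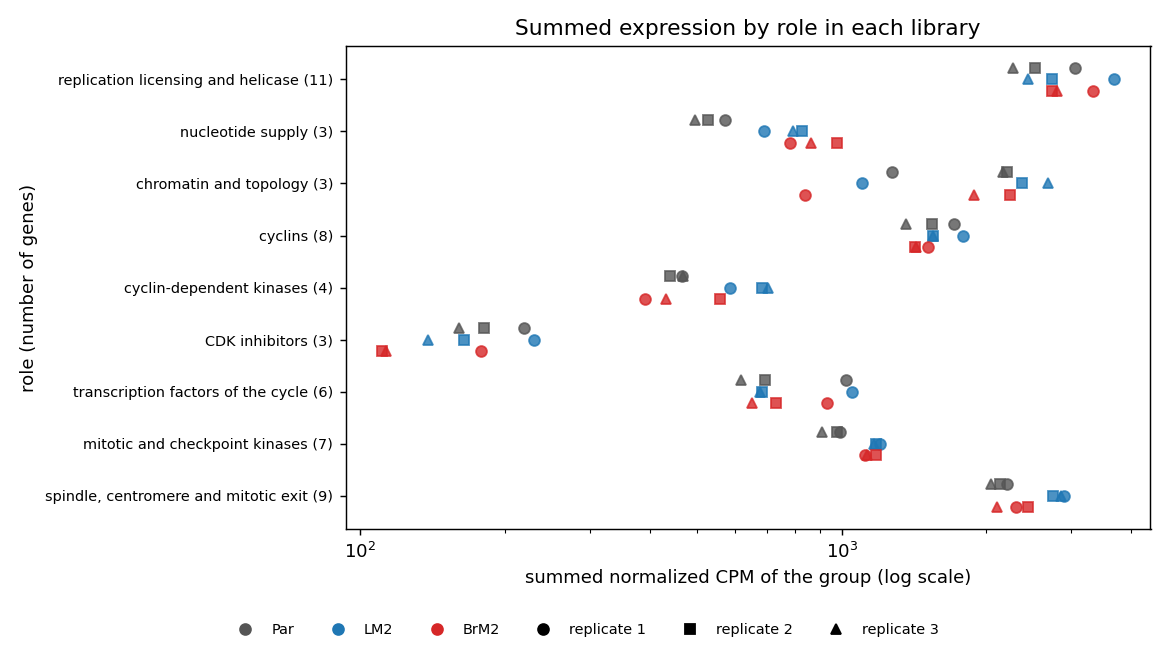
Summed normalized CPM on a log scale (horizontal axis) of the genes of each role (vertical axis, with the number of genes), for each library. Colours are the lines and symbols the replicate numbers; nucleotide supply lies at 495 to 573 CPM in Par and at 690 to 976 CPM in LM2 and BrM2, and the first replicate is lowest in every line for chromatin and topology.

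Origin licensing and helicase genes were mostly level or higher in the metastatic lines. Without the block 1 of 11 passed for BrM2 against Par (9.09%, beside 13.2% of all genes) and 0 of 11 in the other comparisons. With it, 3 of 11 passed for LM2 against Par (27.3%, beside 34.5% of all genes). For BrM2 against Par 6 of 11 passed (54.5%, beside 42.7%), and all were higher in both comparisons. For BrM2 against LM2 4 of 11 passed (36.4%, beside 37.5%), 3 higher and 1 lower. CDC6, the ATPase that recruits the helicase to origins, was at 145, 143 and 143 CPM in Par, 213, 199 and 201 in LM2 and 247, 282 and 249 in BrM2. No library of a line overlapped with another line. The log2 fold change for BrM2 against Par was 0.85 ± 0.14 (SE, adjusted p = 0.005), and for LM2 against Par it was 0.51 ± 0.14 (SE, adjusted p = 0.067) without the block and 0.51 ± 0.11 (SE, adjusted p = 0.0043) with it. The difference between BrM2 and LM2 was 0.35 ± 0.11 (SE, adjusted p = 0.027) with the block. The BrM2 call remained when any 1 library was left out, with adjusted p-values up to 0.033, and was lost without replicate 2 or without replicate 3 of all lines.

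CDT1, the partner of CDC6 in loading the helicase, had 20.5, 24 and 8.61 CPM in Par, 27, 13.2 and 9.35 in LM2 and 68.6, 18.5 and 24.4 in BrM2. With the block it was higher in BrM2 than in LM2 by 1.14 ± 0.32 (SE, adjusted p = 0.017) and higher than in Par by 0.95 ± 0.32 (SE, adjusted p = 0.036), the latter in 2 of 3 replicate pairs. Replicate 1 of BrM2 was the highest library, and without replicate 1 the values were 1.01 (adjusted p = 0.11) and 0.56 (adjusted p = 0.33). CDT1 had the highest GC content of the list, at 64.3%. MCM10, a scaffold that helps to start the helicase, was counted at 47.9, 64.2 and 64.3 CPM in Par, 49.4, 84.7 and 91.7 in LM2 and 63.7, 129 and 124 in BrM2. Within each replicate number it increased from Par to LM2 to BrM2, and with the block BrM2 was above Par by 0.79 ± 0.14 (SE, adjusted p = 0.00091) and above LM2 by 0.47 ± 0.13 (SE, adjusted p = 0.018). CDC45, which completes the active helicase, was higher in both metastatic lines, with 82.5, 63.3 and 61.9 CPM in Par against 153, 92.9 and 87.1 in LM2 and 116, 88.3 and 94 in BrM2. With the block the log2 fold changes were 0.65 ± 0.12 (SE, adjusted p = 0.0024) and 0.53 ± 0.12 (SE, adjusted p = 0.0059), whereas without it they were 0.68 ± 0.26 (SE, adjusted p = 0.17) and 0.52 ± 0.26 (SE, adjusted p = 0.26).

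MCM4, a helicase subunit, had narrow replicates, with 265, 261 and 252 CPM in Par, 322, 343 and 341 in LM2 and 298, 333 and 330 in BrM2. Every LM2 and BrM2 library was above every Par library, and with the block it was higher in LM2 by 0.37 ± 0.10 (SE, adjusted p = 0.018) and in BrM2 by 0.30 ± 0.10 (SE, adjusted p = 0.035). Its partner MCM6 was at 150, 166 and 163 CPM in Par, 149, 183 and 185 in LM2 and 122, 149 and 138 in BrM2. With the block MCM6 was lower in BrM2 than in LM2 (log2 fold change -0.33 ± 0.10, adjusted p = 0.028). PCNA, the sliding clamp of the replicative polymerases, had 236, 232 and 212 CPM in Par, 261, 281 and 222 in LM2 and 325, 257 and 308 in BrM2. BrM2 was higher than Par in every library, and the difference passed with the block (log2 fold change 0.39 ± 0.13, adjusted p = 0.028) but not without replicate 1 (0.37 (adjusted p = 0.12)). For MCM2, MCM3, MCM5 and MCM7, the other helicase subunits, no comparison passed, and their log2 fold changes with the block lay between -0.15 (MCM7, BrM2 against Par) and 0.33 (MCM2, BrM2 against Par). With the correction for GC content and length MCM2 passed against Par in both lines, at 0.36 ± 0.13 (SE, adjusted p = 0.032) and 0.42 ± 0.13 (SE, adjusted p = 0.013). MCM7 and MCM3 were nevertheless among the most abundant genes of the list per length, at 287 and 229 CPM per kb of transcript in Par.

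RRM2, the regulated small subunit of ribonucleotide reductase, was lowest in Par, at 272, 223 and 188 CPM, intermediate in LM2, at 334, 330 and 303, and highest in BrM2, at 458, 507 and 444. The lines did not overlap. BrM2 was above Par by 1.04 ± 0.18 (SE, adjusted p = 0.0052) without the block, and LM2 was above Par by 0.50 ± 0.18 (SE, adjusted p = 0.14) without it and by 0.51 ± 0.12 (SE, adjusted p = 0.0082) with it. BrM2 exceeded LM2 by 0.54 ± 0.12 (SE, adjusted p = 0.0057) with the block. Leaving out any 1 library kept the call for BrM2 against Par (adjusted p up to 0.033), but it was lost without replicate 2 or without replicate 3 of all lines. RRM1, the large subunit of the same enzyme, had 241, 268 and 280 CPM in Par, 312, 456 and 450 in LM2 and 255, 402 and 380 in BrM2. It rose with the block by 0.60 ± 0.12 (SE, adjusted p = 0.0032) in LM2 and by 0.37 ± 0.12 (SE, adjusted p = 0.031) in BrM2, and was here highest in LM2. TYMS, which makes thymidylate, was at 59.3, 35.4 and 26.6 CPM in Par, 44, 39.8 and 38.2 in LM2 and 67.6, 66.4 and 38.9 in BrM2. BrM2 was above Par with the block (log2 fold change 0.54 ± 0.18, adjusted p = 0.034), while the other comparisons did not pass. With the correction for GC content and length BrM2 was also above LM2, by 0.43 ± 0.16 (SE, adjusted p = 0.043). ENOSF1, on the opposite strand, overlaps 39.9% of the exon bases of TYMS, and since the counted strand is not stated its level is uncertain.

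**Figure D4:**
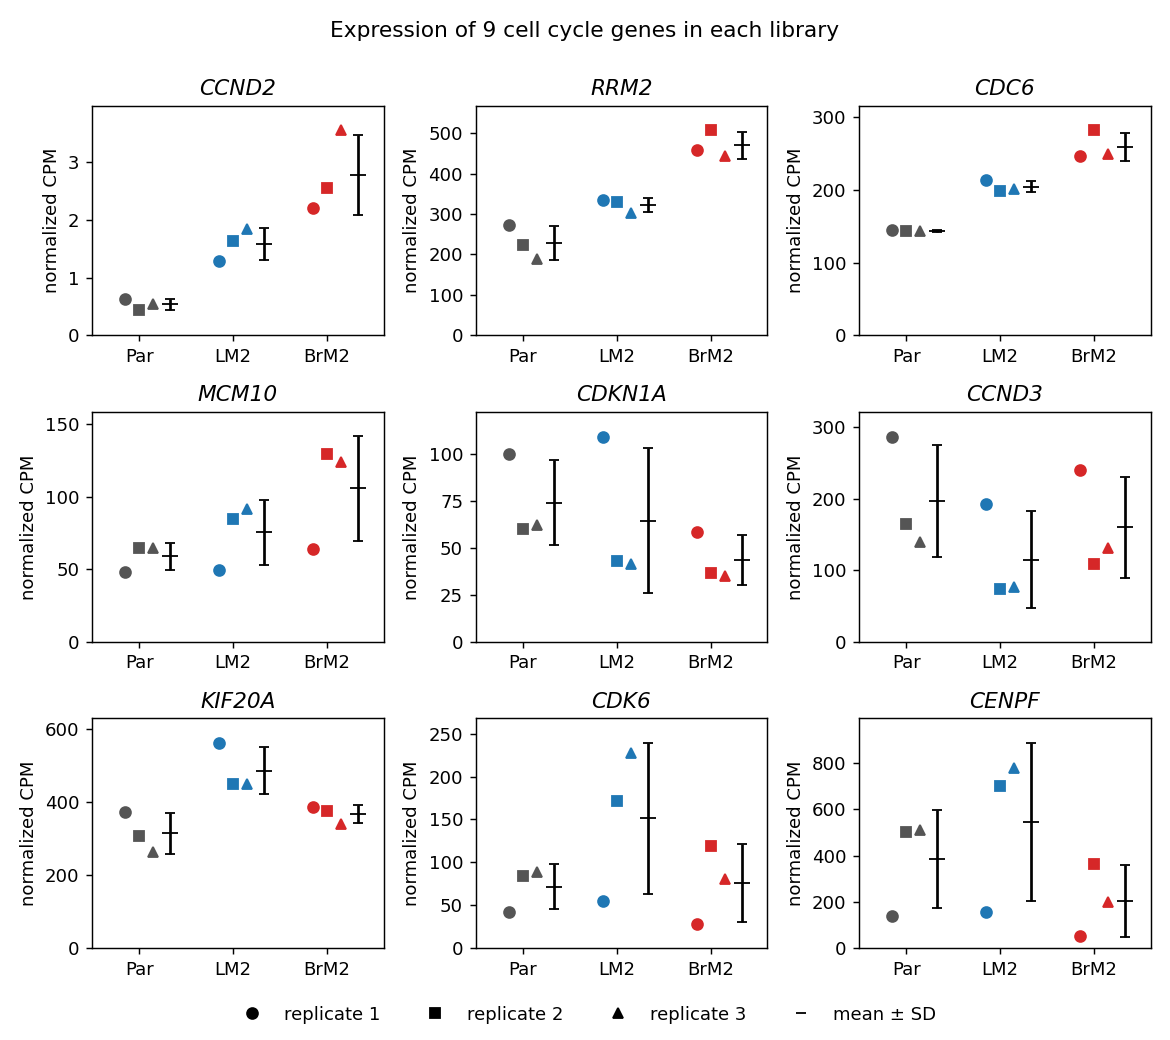
Normalized CPM (vertical axes, from 0) of 9 genes in each library of Par, LM2 and BrM2, with circles, squares and triangles for replicates 1, 2 and 3 and a bar for mean ± SD. CCND2, RRM2 and CDC6 increase from Par to LM2 to BrM2 with no overlap, whereas in CENPF and CDK6 replicate 1 lies below replicates 2 and 3 in every line.

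The cyclins differed from each other in direction and size. Without the block 1 of 8 passed in each comparison with Par (CCND2, 12.5%, beside 8.65% and 13.2% of all genes). With it, 4 of 8 passed for LM2 against Par (50%, 3 higher, 1 lower), beside 34.5% of all genes. For BrM2 against Par 1 of 8 passed (12.5%, beside 42.7%), and for BrM2 against LM2 5 of 8 (62.5%, 2 higher, 3 lower, beside 37.5%). CCND2, cyclin D2, was almost silent in Par, with 12, 9 and 14 counts in replicates 1, 2 and 3. There were 26, 40 and 48 counts in LM2 and 30, 58 and 74 in BrM2, which corresponds to 0.63, 0.436 and 0.55 CPM, 1.29, 1.63 and 1.84 CPM and 2.21, 2.56 and 3.55 CPM. The lines did not overlap, and the order was Par, LM2, BrM2 within each replicate number. The log2 fold change was 1.55 ± 0.31 (SE, adjusted p = 0.016) in LM2 and 2.36 ± 0.31 (SE, adjusted p = 0.0014) in BrM2, which were the largest increases of the list. BrM2 was above LM2 by 0.80 ± 0.25 (SE, adjusted p = 0.027) with the block and by 0.82 (adjusted p = 0.067) when replicate 1 was also left out. The call for LM2 against Par was lost without Par replicate 2, Par replicate 3, LM2 replicate 2 or LM2 replicate 3, with adjusted p-values up to 0.081. The call for BrM2 against Par held when any single library was left out. Both calls were lost without replicate 2 or without replicate 3 of all lines.

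CCND1, cyclin D1, was by contrast level, at 483, 593 and 493 CPM in Par, 431, 583 and 557 in LM2 and 469, 495 and 544 in BrM2. Its log2 fold changes were 0.00 ± 0.12 (SE, adjusted p = 0.98) and -0.05 ± 0.12 (SE, adjusted p = 0.75) with the block. CCND3, cyclin D3, was at 287, 165 and 140 CPM in Par, 193, 74.1 and 76.7 in LM2 and 240, 109 and 131 in BrM2. In every replicate pair it was lowest in LM2, where it was lower than in Par with the block (log2 fold change -0.87 ± 0.14, adjusted p = 0.00077), and BrM2 was above LM2 by 0.55 ± 0.14 (SE, adjusted p = 0.01). Without the block the LM2 value was -0.79 ± 0.47 (SE, adjusted p = 0.43). Per length of transcript, CCND1 took 44.6% to 78.9% of the summed D-type cyclin level in the 9 libraries, CCND3 21% to 55.4% and CCND2 0.0303% to 0.282%, so that the gene with the largest relative change was the least abundant of the family. Replicate 1 had the lowest CCND1 share and the highest CCND3 share in each line.

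CCNB1, cyclin B1, which drives entry into mitosis with CDK1, had 568, 419 and 386 CPM in Par, 824, 521 and 548 in LM2 and 521, 473 and 451 in BrM2. With the block it was higher in LM2 than in Par by 0.45 ± 0.12 (SE, adjusted p = 0.015) and lower in BrM2 than in LM2 (log2 fold change -0.36 ± 0.12, adjusted p = 0.04), but without replicate 1 the latter was -0.20 (adjusted p = 0.18). CCNB2, cyclin B2, was likewise highest in LM2, at 127, 115 and 98.5 CPM in Par, 158, 139 and 132 in LM2 and 105, 96.3 and 98.2 in BrM2, and the LM2 libraries lay above all others. The differences with the block were 0.33 ± 0.11 (SE, adjusted p = 0.033) for LM2 against Par, which became 0.35 (adjusted p = 0.063) without replicate 1, and -0.51 ± 0.11 (SE, adjusted p = 0.0042) for BrM2 against LM2. CCNE2, cyclin E2, was lower in BrM2 than in LM2 with the block (log2 fold change -0.76 ± 0.26, adjusted p = 0.04), which became -0.58 (adjusted p = 0.088) without replicate 1. INTS8 overlaps 37% of its exon bases on the opposite strand. CCNE1 and CCNA2, cyclins of S phase entry and S phase, did not pass in any comparison, though CCNA2 was lower in every LM2 and BrM2 library than in every Par library (-0.28 ± 0.12 (SE, adjusted p = 0.092) and -0.31 ± 0.12 (SE, adjusted p = 0.052) with the block). With the correction for GC content and length both differences of CCNA2 passed, at -0.36 ± 0.08 (SE, adjusted p = 0.0023) and -0.34 ± 0.08 (SE, adjusted p = 0.0022).

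CDK6 had the largest differences among the 4 cyclin-dependent kinases of the list. It was at 41.8, 83.9 and 89.2 CPM in Par, 55.1, 171 and 228 in LM2 and 27.6, 119 and 80.9 in BrM2. Replicate 1 was the lowest library in each line, and within every replicate number LM2 was the highest line. With the block CDK6 rose in LM2 by 0.93 ± 0.21 (SE, adjusted p = 0.0062) and was lower in BrM2 than in LM2 (log2 fold change -1.0 ± 0.21, adjusted p = 0.0043). Without the block the values were 1.08 ± 0.62 (SE, adjusted p = 0.4) and -1.0 ± 0.62 (SE, adjusted p = 0.43). CDK4, its close relative, had 226, 131 and 128 CPM in Par, 330, 136 and 118 in LM2 and 196, 136 and 112 in BrM2, with the first replicate on top in all lines, and no comparison passed. With the correction for GC content and length BrM2 against LM2 was -0.30 ± 0.11 (SE, adjusted p = 0.038). TSPAN31 on the opposite strand overlaps 44.2% of CDK4's exon bases. Per length, CDK4 made up 76.4% to 97.8% of the 2 kinases. CDK2, the partner of the E-type cyclins, was at 68.5, 54.6 and 58.8 CPM in Par, 75.8, 82 and 83.5 in LM2 and 73.4, 77.7 and 69.4 in BrM2, and was higher in LM2 with the block (log2 fold change 0.41 ± 0.12, adjusted p = 0.025). CDK1, the mitotic kinase, was lower in BrM2 than in LM2 with the block (log2 fold change -0.50 ± 0.16, adjusted p = 0.034) and otherwise did not pass.

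The 3 inhibitors each had their lowest mean in BrM2. Without the block 0 of 3 passed in any comparison. With the block 2 of 3 were lower in BrM2 than in Par, beside 42.7% of all genes called in either direction and 23.2% lower. In BrM2 against LM2 2 of 3 were lower, beside 37.5% and 19.7%. For LM2 against Par 0 of 3 passed, beside 34.5% of all genes. CDKN1A, the inhibitor p21, was at 100, 59.9 and 61.9 CPM in Par, 109, 42.8 and 41.5 in LM2 and 58.5, 36.3 and 34.8 in BrM2. Every BrM2 library was below every Par library, and with the block the difference was -0.78 ± 0.15 (SE, adjusted p = 0.0022). Against LM2 it was -0.47 ± 0.15 (SE, adjusted p = 0.032) with the block and -0.23 (adjusted p = 0.17) when replicate 1 was also left out. CDKN1B, p27, had 30.1, 45.3 and 44.5 CPM in Par, 21.1, 36.4 and 33.9 in LM2 and 28.5, 26.6 and 30.6 in BrM2, and it was lower in BrM2 than in Par with the block (log2 fold change -0.45 ± 0.16, adjusted p = 0.043). CDKN2C, p18, had 88.6, 76.2 and 53.6 CPM in Par, 98.6, 84.8 and 63.1 in LM2 and 90.9, 48.1 and 47.5 in BrM2, and it was lower in BrM2 than in LM2 with the block (log2 fold change -0.44 ± 0.15, adjusted p = 0.036).

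Of the transcription factors, 0 of 6 passed without the block in any comparison. With the block, 2 of 6 passed for LM2 against Par (33.3%, beside 34.5% of all genes) and 0 of 6 for BrM2 against Par (beside 42.7%). For BrM2 against LM2 2 of 6 passed (33.3%, beside 37.5%). The genes were FOXM1 and MYBL2 each time. FOXM1, which drives the genes of G2 and mitosis, was at 356, 210 and 202 CPM in Par, 490, 249 and 258 in LM2 and 301, 224 and 196 in BrM2. It was highest in LM2 within each replicate number, and with the block the log2 fold change was 0.36 ± 0.12 (SE, adjusted p = 0.041) for LM2 against Par and -0.42 ± 0.12 (SE, adjusted p = 0.02) for BrM2 against LM2. Without replicate 1 neither difference passed (0.30 (adjusted p = 0.069) and -0.26 (adjusted p = 0.1)), and ITFG2 overlaps 15.9% of its exon bases on the opposite strand. MYBL2, the B-MYB partner of MuvB, went the other way. With the block it was lower in LM2 than in Par (log2 fold change -0.58 ± 0.13, adjusted p = 0.0061) and higher in BrM2 than in LM2 (log2 fold change 0.75 ± 0.13, adjusted p = 0.0014). E2F1 and E2F2, activators of the replication genes, and E2F7 and E2F8, which repress them, did not pass in any comparison, and their log2 fold changes with the block lay between -0.24 (E2F1, LM2 against Par) and 0.21 (E2F2, BrM2 against Par).

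AURKA, the kinase of spindle poles, rose with the block in both metastatic lines. It had 298, 261 and 246 CPM in Par, 429, 367 and 359 in LM2 and 343, 347 and 342 in BrM2, and no Par library reached the lowest library of the other lines. The log2 fold changes with the block were 0.52 ± 0.11 (SE, adjusted p = 0.0038) in LM2 and 0.36 ± 0.11 (SE, adjusted p = 0.019) in BrM2. AURKB, the kinase of the chromosomal passenger complex, was counted at 170, 116 and 97.2 CPM in Par, 248, 130 and 115 in LM2 and 250, 147 and 154 in BrM2. Its first replicates were the highest of each line, and with the block BrM2 was above Par by 0.52 ± 0.12 (SE, adjusted p = 0.0055) while LM2 was at 0.32 ± 0.12 (SE, adjusted p = 0.062). With the correction for GC content and length the LM2 value was 0.43 ± 0.08 (SE, adjusted p = 0.00056). TTK, a spindle checkpoint kinase, had 38, 65.4 and 75.4 CPM in Par, 34.8, 107 and 112 in LM2 and 19, 70.7 and 52.5 in BrM2, and it was lower in BrM2 than in LM2 with the block (log2 fold change -0.84 ± 0.19, adjusted p = 0.0056). PLK1, PLK4, BUB1 and BUB1B did not pass in any comparison. With the correction for GC content and length, PLK1 was higher in BrM2 than in Par by 0.46 ± 0.09 (SE, adjusted p = 0.0012) and than in LM2 by 0.25 ± 0.09 (SE, adjusted p = 0.039), and PLK4 was -0.35 ± 0.09 (SE, adjusted p = 0.0059) in LM2 against Par. PLK4, which duplicates centrioles, ran with the replicate number instead, as the log2 difference of its first replicate from the mean of the others was -1.49 in Par, -2.16 in LM2 and -2.14 in BrM2.

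Spindle genes split into some that rose in LM2 and others that were low in BrM2. With the block 3 of 9 rose in LM2 against Par, 1 of 9 was higher and 2 of 9 lower in BrM2 than in Par, and 3 of 9 were lower in BrM2 than in LM2. The share called was 33.3% each time, beside 34.5%, 42.7% and 37.5% of all genes in either direction. Without the block 0 of 9 passed in any comparison. KIF20A, a kinesin of cytokinesis, had 373, 306 and 262 CPM in Par, 561, 448 and 448 in LM2 and 385, 375 and 340 in BrM2. LM2 stood above both other lines in every library. With the block KIF20A rose in LM2 by 0.64 ± 0.11 (SE, adjusted p = 0.0015), and BrM2 against LM2 was -0.40 ± 0.11 (SE, adjusted p = 0.017), or -0.31 (adjusted p = 0.063) without replicate 1. TPX2, which activates AURKA on the spindle, was at 600, 502 and 505 CPM in Par, 775, 662 and 692 in LM2 and 620, 675 and 632 in BrM2. It rose in LM2 with the block by 0.41 ± 0.11 (SE, adjusted p = 0.018), whereas BrM2 against Par was 0.27 ± 0.11 (SE, adjusted p = 0.08). CDC20, the activator of the anaphase-promoting complex, rose with the block in LM2 by 0.45 ± 0.14 (SE, adjusted p = 0.03) and in BrM2 by 0.64 ± 0.14 (SE, adjusted p = 0.004). It had the highest level per length of the list in LM2 and BrM2, at 339 and 360 CPM per kb.

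CENPF, a large kinetochore protein, showed the largest decrease of the list. It was at 139, 504 and 513 CPM in Par, 155, 703 and 781 in LM2 and 50.7, 364 and 199 in BrM2. Within each replicate number BrM2 was the lowest and LM2 the highest line, but the first replicates were so low that the lines overlapped. With the block BrM2 was lower than Par (log2 fold change -1.08 ± 0.19, adjusted p = 0.0012) and lower than LM2 (log2 fold change -1.49 ± 0.20, adjusted p = 0.00023). Without the block neither difference passed, with -0.91 ± 0.80 (SE, adjusted p = 0.57) and -1.42 ± 0.81 (SE, adjusted p = 0.38). CENPE, the kinesin that moves chromosomes to the spindle equator, was also lower in BrM2 with the block, with -0.93 ± 0.24 (SE, adjusted p = 0.011) against LM2 and -0.69 ± 0.24 (SE, adjusted p = 0.039) against Par, the latter becoming -0.58 (adjusted p = 0.17) without replicate 1. KIF11, CENPA, NUSAP1 and BIRC5 did not pass in any comparison, though with the correction for GC content and length KIF11 passed for LM2 against Par, at -0.23 ± 0.08 (SE, adjusted p = 0.033), and CENPA for BrM2 against Par, at 0.30 ± 0.11 (SE, adjusted p = 0.038). The level of NUSAP1, 2.10 to 2.48 CPM per kb over the 3 lines, is uncertain. Another annotated gene on the same strand, without a symbol, shares 81.4% of the exon bases of NUSAP1. That gene had a mean count of 0.0 itself, and how reads in the shared bases were counted was not tested.

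MKI67, the standard proliferation marker, did not pass in any comparison. It was at 745, 1120 and 1140 CPM in Par, 516, 1030 and 1260 in LM2 and 480, 1230 and 1040 in BrM2, and the block values were -0.17 ± 0.16 (SE, adjusted p = 0.42) for LM2 and -0.21 ± 0.16 (SE, adjusted p = 0.31) for BrM2 against Par. TOP2A, the topoisomerase of S phase and mitosis, had 403, 879 and 908 CPM in Par, 489, 1200 and 1330 in LM2 and 223, 929 and 721 in BrM2. The first replicate was lowest in each line for both genes. With the block TOP2A was lower in BrM2 than in LM2 (log2 fold change -0.78 ± 0.16, adjusted p = 0.004), while the comparisons with Par did not pass (0.42 ± 0.16 (SE, adjusted p = 0.066) and -0.36 ± 0.16 (SE, adjusted p = 0.1)). With the correction for GC content and length TOP2A passed for LM2 against Par, at 0.38 ± 0.11 (SE, adjusted p = 0.015). UHRF1, which keeps DNA methylation through replication, did not pass in any comparison.

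The likeness of expression patterns was described over the 9 libraries, which differ in line, replicate number and depth. The genes of the list most like CCND2 were CDC6 (Pearson r of log2 CPM 0.94), RRM2 (0.90) and MCM4 (0.83). CDC6 and RRM2 increased from Par to LM2 to BrM2, whereas MCM4 was slightly lower in BrM2 than in LM2 in every replicate pair. Those most like CDKN1A were MCM7 (0.88), CDK4 (0.86) and E2F1 (0.84), and those most like CCND1 were KIF11 (0.76), PLK4 (0.76) and E2F8 (0.74), genes in which the replicate number took most of the variation.

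Other genes of the cycle were taken from a list of 133 symbols, of which 132 were found and 128 tested. Without the block 6 of 128 passed for LM2 against Par, all higher (GINS4, TICRR, TFDP1, FEN1, LIN52 and PRIM2), which is 4.69% beside the 8.65% of all genes. For BrM2 against Par 6 passed (GINS4, FEN1, LIN52, NCAPH and RFC5 higher, CKS2 lower), which is 4.69% beside 13.2% of all genes. For BrM2 against LM2 4 passed, all lower (TICRR, CKS2 and TFDP2 among them), which is 3.12% beside 8.08%. With the block, 38 of 128 passed for LM2 against Par (36 higher, 2 lower), 46 for BrM2 against Par (31 higher, 15 lower) and 48 for BrM2 against LM2 (10 higher, 38 lower). These are 29.7%, 35.9% and 37.5%, beside 34.5%, 42.7% and 37.5% of all genes, and the median log2 fold changes of the 128 genes without the block were 0.25, 0.05 and -0.20.

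GINS4, a subunit of the GINS complex of the active helicase, was at 52.8, 47.6 and 38.8 CPM in Par, 210, 144 and 120 in LM2 and 114, 95.3 and 96.1 in BrM2. The lines did not overlap, with log2 fold changes of 1.77 ± 0.25 (SE, adjusted p = 0.0025) in LM2 and 1.14 ± 0.24 (SE, adjusted p = 0.015) in BrM2. TICRR, which helps to load CDC45, was higher in LM2 than in Par by 1.0 ± 0.17 (SE, adjusted p = 0.0077), at 38.9, 39.2 and 40.4 CPM in Par, 70.5, 77.2 and 89.2 in LM2 and 37.5, 44.3 and 45.1 in BrM2, and BrM2 against LM2 was -0.90 ± 0.17 (SE, adjusted p = 0.013). FEN1, the flap endonuclease of lagging-strand synthesis, was at 213, 200 and 184 CPM in Par, 400, 342 and 315 in LM2 and 348, 302 and 324 in BrM2, and rose by 0.82 ± 0.16 (SE, adjusted p = 0.014) and 0.71 ± 0.16 (SE, adjusted p = 0.021). TFDP1, the dimer partner of the E2F factors, rose in LM2 by 0.84 ± 0.15 (SE, adjusted p = 0.0097), from 253, 220 and 223 CPM in Par to 464, 387 and 396 in LM2, and had 303, 299 and 296 CPM in BrM2. LIN52, a MuvB subunit, was higher in both lines, at 16.9, 13.1 and 15.2 CPM in Par, 25.4, 27.3 and 27.5 in LM2 and 23.3, 25.2 and 23.5 in BrM2, with log2 fold changes of 0.83 ± 0.18 (SE, adjusted p = 0.02) and 0.67 ± 0.18 (SE, adjusted p = 0.036). CKS2, a small partner of the CDKs, was lower in BrM2, at 86.6, 88.6 and 96.2 CPM, than in Par, at 151, 166 and 154, and LM2, at 133, 153 and 142, with log2 fold changes of -0.80 ± 0.15 (SE, adjusted p = 0.0087) and -0.66 ± 0.15 (SE, adjusted p = 0.03).

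RB1, which encodes the retinoblastoma protein, was at 49.5, 65.3 and 90.5 CPM in Par, 55.7, 133 and 148 in LM2 and 29.9, 83.4 and 78.8 in BrM2. It was higher in LM2 with the block (log2 fold change 0.62 ± 0.18, adjusted p = 0.02) and lower in BrM2 than in LM2 (log2 fold change -0.81 ± 0.18, adjusted p = 0.0049), and passed in no comparison without the block. CDKN2A and CDKN2B, neighbouring inhibitor genes on chromosome 9 that encode p16 and p15, had 0 counts in all 9 libraries, which allows levels of up to 0.115 to 0.221 CPM per library by counting error alone. MYC, an activator of cell cycle genes, was at 114, 104 and 98.5 CPM in Par, 152, 88.5 and 87.1 in LM2 and 201, 135 and 162 in BrM2, and was higher in BrM2 with the block (log2 fold change 0.63 ± 0.14, adjusted p = 0.0045).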

How the data were processed

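RNA was measured by RNA-seq in 9 libraries, 3 per line. The authors made stranded mRNA libraries with a TruSeq kit, aligned paired-end reads to hg38 with STAR, for which the submitters' processing notes list version 2.7.0, and deposited read counts per gene without normalization. The counted strand is not given in the sources used here. Their other table holds DESeq2 fold changes and adjusted p-values and was not used. Groups and replicate numbers came from the sample titles.

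The counts of 3 repeated identifiers among 58887 rows were summed. A filter written after HTSFilter kept genes whose largest normalized count exceeded 49.24, from 100 thresholds between 1 and 200 (loess span 0.3). All 9 libraries were tested in edgeR 4.0.16 with TMM factors and the 2-sided quasi-likelihood test, with line as the only term, in R 4.3.3. The Benjamini-Hochberg adjustment ran over 13001 genes, and the threshold was 0.05. CPM are read counts relative to the TMM-adjusted total of each library, and the sum of squares was split on log2(CPM + 0.5). At 14371867 to 24511790 counts per library, 3 counts correspond to 0.115 to 0.221 CPM, which covers counting error only.

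Pairing of libraries by replicate number was judged from their values. Deviations from the line mean correlated at 0.23 to 0.90 in all 9 pairs of libraries with the same number, and at -0.88 to 0.80 in the 18 pairs with different numbers. Among replicates 2 and 3, pairs with different numbers also correlated (0.39 to 0.80, against 0.23 to 0.81 with the same number), so that the correlations mainly set replicate 1 apart. Since all 9 exceeded 0.1, the numbers were taken as pairing the libraries. For replicates 2 and 3 this check cannot decide the pairing, because their pairs with different numbers exceeded 0.1 as well. Alternatives were DESeq2 1.42.0, other factors and filters, the replicate block, leaving out libraries and, added after the data had been seen, the block with an offset for GC content and length (known for 99.1% of genes) and the block without replicate 1. The fits were tested on simulated data, with 200 changed genes in LM2 against Par. With a replicate effect and a log2 change of 1, the fit without the block recovered 0 of the 200 and the fit with it 188. At a log2 change of 2 they recovered 135 and 200. Transcript length and GC content came from GENCODE canonical transcripts, and promoters and positions from RefSeq by symbol. Python 3.11.15 was used for the promoters.

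The 54 genes, the role groups and the other lists were chosen with earlier results of these data known. Values in every library are given for the genes past the threshold in any comparison with or without the block, up to 25 by the smallest adjusted p without it, and for MKI67, PCNA, TOP2A, CCND1, CCND2, CCND3, CDK4, CDK6, CDKN1A, CDKN1B and CDKN2C. Of the other genes of the cycle, the 6 with the smallest adjusted p and RB1, CDKN2A, CDKN2B and MYC are described, and likeness was computed for CCND2, CDKN1A and CCND1. Further genes are named where a count of 6 or fewer is given, except those whose results are not reported here.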

Additional observations from a re-analysis of the deposited data

Results flagged for a closer look

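In the fit with the replicate number as a block, the changes of LM2 and BrM2 from Par differed for 21 genes of the list, by the test of BrM2 against LM2. These are 38.9% of the list, beside 37.5% of all genes. Signs were compared only among the genes picked by this test, and the share over all genes was not computed. For 13 of the 21 genes the 2 changes from Par had opposite signs, and at least 1 of these changes itself passed for 7. In these 7 genes the log2 fold change of BrM2 against LM2 was 1.14 for CDT1, 0.75 for MYBL2, -0.51 for CCNB2, -1.0 for CDK6, -0.42 for FOXM1, -0.93 for CENPE and -1.49 for CENPF. In the other 6, neither change from Par passed, and the difference was -0.33 for MCM6, -0.78 for TOP2A, -0.76 for CCNE2, -0.50 for CDK1, -0.44 for CDKN2C and -0.84 for TTK. Some of the opposite signs rested on values near 0. BrM2 against Par was -0.07 ± 0.21 for CDK6, -0.06 ± 0.12 for FOXM1 and -0.09 ± 0.17 for CDK1 (SE). For CDK6 it was 0.08 without the block, and for CDK1 0.05 with the correction for GC content and length. These signs then matched those of LM2, whereas FOXM1 stayed negative in both fits. For 8 genes the changes had the same sign but differed in size, with 0.47 for MCM10, 0.35 for CDC6, 0.54 for RRM2, 0.80 for CCND2, 0.55 for CCND3, -0.36 for CCNB1, -0.47 for CDKN1A and -0.40 for KIF20A. When replicate 1 was also left out, 14 of the 21 passed, and CDT1, CCNE2, CCNB1, CCND2, CDKN1A, FOXM1 and KIF20A did not. Without the block, edgeR called 0 of the 21 at an adjusted p of 0.05. In that fit 4 genes of the list (7.41%, beside 20.9% of all genes) had an unadjusted p under 0.05. DESeq2 called 3 genes of the list (5.56%, beside 13.9% of all genes).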

How the results depend on the processing

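Without the block, 1125, 1721 and 1051 genes and 1, 3 and 0 of the list passed for LM2 against Par, BrM2 against Par and BrM2 against LM2. Other scaling factors, no filter and edgeR's own filter kept these counts within 1.5 times. DESeq2 gave 1885, 2507 and 1812 genes, and 9, 4 and 3 of the list. The replicate block gave 4487, 5551 and 4880 genes, and 17, 17 and 21 of the list. The block with GC content and length gave 6004, 7372 and 6548 genes, and 28, 25 and 24 of the list. The block without replicate 1 gave 3634, 4795 and 3715 genes, and 20, 18 and 15 of the list. The last 2 were chosen after seeing the data. Leaving out libraries, singly or by replicate number, gave 70 to 4301, 158 to 5249 and 53 to 4240 genes, and 0 to 23, 0 to 20 and 0 to 15 of the list. The lowest counts were without replicate 2 of all lines and the highest without replicate 1. Single libraries that moved a count of all genes by over 1.5 times were replicates 2 and 3 of each line and Par replicate 1, with counts from 540 to 1106. The CCND2 call for LM2 was lost without Par or LM2 replicate 2 or 3. Removing a replicate number leaves 2 libraries per line. No fold change of the list that had passed changed sign. The cause of these differences was not tested. Depth limits CCND2, with 9 to 14 counts in Par.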
